A study of Homo sapiens with 4 samples.

Results

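Cholesterol synthesis is represented here by 9 enzyme genes, HMGCS1, MVD, IDI1, FDPS, FDFT1, SQLE, LSS, CYP51A1 and DHCR7, out of 19689 protein-coding genes with an annotated protein-coding transcript. They were taken as a named list and not by a cut on any measured value, but the list was chosen with earlier results of these data known. The question was where chromatin immunoprecipitation followed by sequencing (ChIP-seq) placed the transcription factor c-MYC at these genes, and how the lists of peaks differed between drug treatments. All 4 libraries came from MIA PaCa-2, a long-established line of human pancreatic ductal adenocarcinoma cells, after 8 h of treatment. In 3 groups a c-MYC antibody was used, on cells given the solvent DMSO, AMG510 at 100 nM or the MEK inhibitor trametinib at 10 nM, and the remaining group used non-specific immunoglobulin G (IgG) in DMSO-treated cells. Each group was 1 library, so no difference between treatments had a replicate check and none was tested, and IgG was not available beside either drug.

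Cholesterol is built from acetyl-CoA through the mevalonate pathway, which yields isoprene units that are joined to squalene, closed into the first sterol and then trimmed and reduced to cholesterol. The transcription factor SREBP-2 drives most of these genes together when cell sterols are low, acting at sterol regulatory elements in their promoters, usually beside the factor NF-Y at CCAAT boxes. c-MYC, with its partner MAX, binds E-boxes, of which CACGTG is the canonical form and CACGCG a common variant. Both are recognised as controls of lipid metabolism in cancer cells.

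A peak is a place where sequenced fragments pile up above the background of the same library. A peak was counted as a promoter peak where its summit fell at most 1 kb from a transcription start site (TSS) used by any protein-coding transcript, and peaks elsewhere had their summit in the rest of the gene or within 10 kb upstream. For c-MYC, 9552 peaks were listed in DMSO, 10378 under AMG510 and 5431 under trametinib, and the IgG list held 2966. Tags are aligned reads that entered peak calling. Their totals, recovered from the deposited values and not counted, ran from 22700000 to 24800000 and were highest in trametinib. The paper lists fewer uniquely mapped reads for each library, with trametinib lowest. The cause of this difference was not tested. Median peaks rested on 10 to 13 tags at the summit, and 7 or 8 tags were enough for a call where the background was at its genome-wide level. Positions are on GRCh38, and distances are from the canonical TSS of GENCODE version 44 unless another start is named. Intervals on tags are exact 95% Poisson intervals. They cover counting error only and are too narrow where both mates of a fragment were counted.

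c-MYC promoter peaks were found at 3 of the 9 genes. LSS had one in all 3 c-MYC lists, CYP51A1 had promoter peaks in DMSO and AMG510 but not in trametinib, and SQLE had one in trametinib alone. That made 2 of 9 genes (22.2%) in each c-MYC list and 0 of 9 in IgG. With a fold enrichment above 5 or a score above 60, the counts were 1 (DMSO c-MYC), 2 (AMG510) and 0 (trametinib). With no nearer start of another gene they were 1, 1 and 0. Shares of all genes were not computed under these limits, so these counts have no background beside them. Without the limits, the share of all protein-coding genes with a promoter peak was 24.2% for DMSO c-MYC and 0.559% with IgG. It was 15.3% under AMG510 and 11.8% under trametinib. The count in DMSO without the limits was thus close to the background share. A change of 1 gene of 9 moves the share by more than the gap between the DMSO and AMG510 backgrounds. With 1 gene fewer, the AMG510 and trametinib shares would also lie below their backgrounds.

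**Figure D1:**
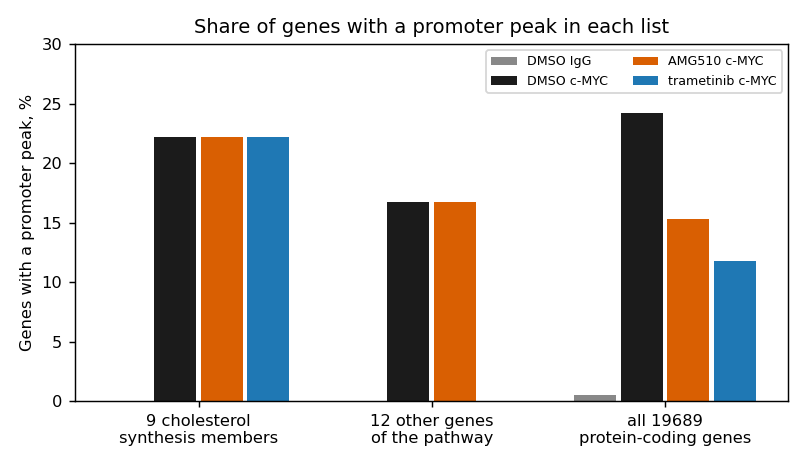
Bars give the percentage of genes with a promoter peak (vertical axis) among the 9 cholesterol synthesis genes, 12 other genes of the pathway and all 19689 protein-coding genes, 1 bar per library. The 9 genes stand at 22.2% in each c-MYC list, which is 2 genes: LSS and CYP51A1 in DMSO and AMG510, LSS and SQLE in trametinib. The bar for all genes is at 24.2% for DMSO, 15.3% for AMG510 and 11.8% for trametinib. A missing bar is 0%. With a fold enrichment above 5 the counts at the 9 genes were 1, 2 and 0. The bars, including those for all genes, carry no such filter.

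By pattern, 1 of 9 genes (LSS) had a promoter peak in all 3 c-MYC lists, where the share of all genes was 5.59%. CYP51A1 was 1 of 9 with a promoter peak in DMSO and AMG510 and not in trametinib, a pattern of 4.8% of all genes. SQLE was 1 of 9 with a promoter peak in trametinib alone, a pattern of 2.6%. No c-MYC list had a promoter peak at the other 6 (HMGCS1, MVD, IDI1, FDPS, FDFT1 and DHCR7), as was so for 68.3% of all genes. Peaks elsewhere in the gene or within 10 kb upstream were found at 1 of 9 genes in DMSO (IDI1), 2 of 9 in AMG510 (IDI1 and HMGCS1) and 0 of 9 in trametinib and IgG. The shares over all genes were 13.6% for DMSO c-MYC, 16.7% under AMG510, 8.92% under trametinib and 6.33% with IgG.

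**Figure D2:**
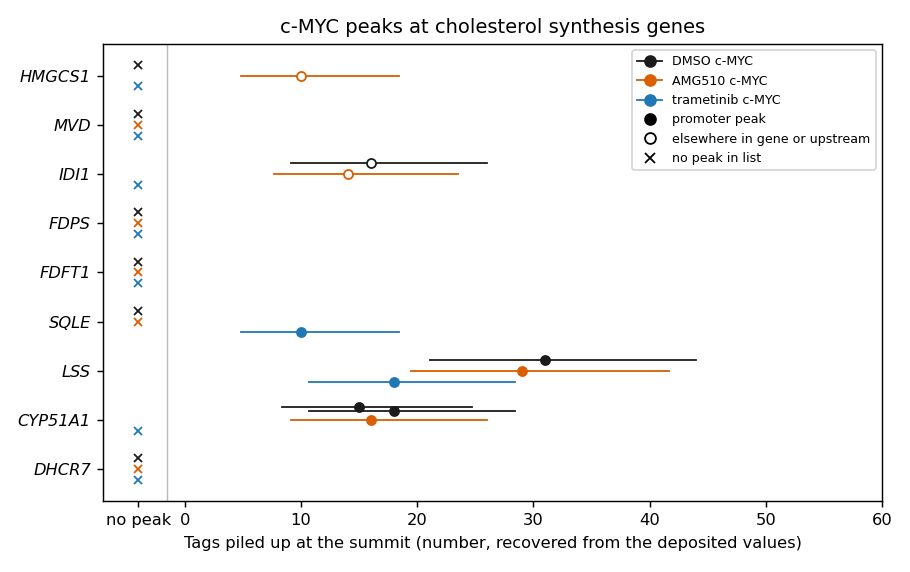
Points give the tags at the summit of every peak at the 9 genes (horizontal axis), with exact 95% Poisson intervals as lines. Filled points are promoter peaks, open points lie elsewhere in the gene or upstream, and crosses in the left strip mark a list with no peak by either rule. LSS has the highest points, at 31, 29 and 18 tags, and the other 7 peaks lie between 10 and 18 tags.

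HMGCS1 (ENSG00000112972.15, chr5:43287470-43313512, minus strand) encodes the cytosolic synthase of an early step of the mevalonate pathway. It had no promoter peak in any of the 4 lists. In AMG510 it had 1 peak at chr5:43306685-43306897, in intron 2 and 6651 bp downstream of the TSS. That peak held 10 tags (4.80 to 18.4) with a fold enrichment over background of 3.34, and only 4.05% of the peaks in its list had a lower fold enrichment. The nearest DMSO summit, also of 10 tags, lay 14951 bp upstream of the nearest HMGCS1 start and therefore outside both rules. The nearest trametinib summit was 192274 bp away.

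HMGCS1 was also the only one of the 9 genes with a match to TCACNCCAC, a sterol regulatory element sequence, within 1 kb of its TSS. The match lies 255 bp upstream of the TSS, at chr5:43313663-43313671, and is shown because it is the only sterol element match in the set. No peak in the 4 lists covers it. The plus strand of the reference is printed, with the match in capitals (the gene is on the other strand).
HMGCS1 sterol element, chr5:43313653-43313682: ggccgaggaaGTGGTGTGAgagactgacgt

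MVD (ENSG00000167508.12, chr16:88651935-88663161, minus strand), which decarboxylates mevalonate diphosphate to isopentenyl diphosphate, had no peak by either rule in any list. A DMSO peak of 16 tags at chr16:88650880-88651082 had its summit 997 bp beyond the 3′ end of MVD and 50 bp from a start of the neighbouring gene CYBA. The nearest summits to an MVD start were 43623 bp away in AMG510 and 42363 bp away in trametinib. The MVD start region holds 2 matches to the variant E-box CACGCG, one 67 bp before the TSS and one 259 bp past it. They are shown, on the plus strand with the match in capitals, as E-box sequence at a start with no c-MYC peak.
MVD upstream match, chr16:88663144-88663173: cctctgcctcctCACGCGctaccacaggat
MVD downstream match, chr16:88662818-88662847: cgccgagcttgtCACGCGaaggagcgcgcg

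IDI1 (ENSG00000067064.13, chr10:1039152-1049119, minus strand) encodes the isomerase that converts isopentenyl diphosphate to dimethylallyl diphosphate, the primer of isoprenoid chains. It had no promoter peak under GENCODE starts. The DMSO list had a peak at chr10:1056378-1056569, whose summit lay 7376 bp before the TSS, of 16 tags (9.15 to 26.0) and a fold enrichment of 5.67. AMG510 had a peak at chr10:1056377-1056589 with its summit 7353 bp upstream, of 14 tags (7.65 to 23.5) and a fold enrichment of 5.12. The 2 peaks shared 192 bp, their summits lay 23 bp apart, and the AMG510-to-DMSO ratio of tags, scaled to the tags in calling, was 0.863 (exact binomial interval 0.39 to 1.89), so the 2 libraries were not distinguishable there.

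Trametinib had no IDI1 peak, and its nearest summit was 59775 bp from an IDI1 start. At the background of the DMSO peak, scaled to the trametinib library, 9 tags would have been needed for a call. Both IDI1 peaks lie near a start of WDR37, a divergently transcribed protein-coding gene, whose start was 91 bp from the DMSO summit and 68 bp from the AMG510 summit. RefSeq lists a further IDI1 start at chr10:1056704, which is 209 bp from the DMSO summit and 232 bp from the AMG510 summit. Which of these starts the peaks belong to cannot be told apart in peak lists.

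FDPS (ENSG00000160752.15, chr1:155308748-155320666, plus strand) makes farnesyl diphosphate, the branch point towards sterols and towards protein prenylation. No list had a peak at FDPS by either rule. The closest c-MYC summit was a DMSO peak of 14 tags, 2628 bp beyond the 3′ end of FDPS and 282 bp from a start of RUSC1. AMG510 and trametinib had their nearest summits at 99996 and 114148 bp. FDPS has 8 pseudogenes annotated by name, IDI1 3 and CYP51A1 3. Reads that fit such copies equally well are removed by a mapping-quality filter, and the effect on these peaks was not tested.

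FDFT1 (ENSG00000079459.14, chr8:11795573-11839395, plus strand) encodes squalene synthase, which commits farnesyl diphosphate to sterols. It had no peak by either rule in any list, with the nearest summits 25626 bp away in DMSO, 25817 bp in AMG510 and 1018591 bp in trametinib. The start region of FDFT1 nevertheless holds a CACGTG match, 424 bp upstream of the TSS.

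SQLE (ENSG00000104549.12, chr8:124998497-125022283, plus strand) encodes squalene epoxidase, a rate-limiting enzyme of the pathway. Trametinib had a peak at chr8:124998275-124998450, whose summit lay 170 bp before the TSS. It held 10 tags (4.80 to 18.4) with a fold enrichment of 4.13 and a −log10 q of 2.38, with 22% of the trametinib peaks lower by −log10 q and 29.4% lower by fold enrichment. A call at this background needed 8 tags in trametinib and, with the background scaled to those libraries, 8 in DMSO and 8 in AMG510. All of these values lie within the counting interval of the 10 tags. The nearest DMSO and AMG510 summits were 421851 and 421641 bp away. Across genes with a promoter peak in trametinib alone, the median of the highest promoter peak was 13 tags, so SQLE lay below the middle of that group.

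The SQLE summit was 137 bp from a start of the divergent long non-coding RNA gene SQLE-DT and 162 bp from the nearest protein-coding SQLE start. Within 100 bp of the summit the reference has a CACGCG match and a CCAAT match, but no CACGTG.

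LSS carried the strongest c-MYC peaks of the set. LSS (ENSG00000160285.15, chr21:46188141-46228824, minus strand) encodes lanosterol synthase, which closes oxidosqualene into the sterol ring system. In DMSO the peak at chr21:46229168-46229517 held 31 tags (21.1 to 44) with a fold enrichment of 7.05 and a −log10 q of 14.8. In AMG510 the peak at chr21:46229142-46229359 held 29 tags (19.4 to 41.6) with a fold enrichment of 8.54 and a −log10 q of 16.6. In trametinib the peak at chr21:46229151-46229581 held 18 tags (10.7 to 28.4) with a fold enrichment of 4.66 and a −log10 q of 4.84. The nearest IgG summit was 1500543 bp from an LSS start.

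Within its own list the LSS peak ranked high in DMSO and AMG510, where 93.3% and 98.9% of peaks had a lower fold enrichment, against 55% in trametinib. By −log10 q, 95% of DMSO peaks, 98.7% of AMG510 peaks and 75.3% of trametinib peaks were lower. The tag ratio was 0.922 for AMG510 against DMSO (0.536 to 1.58), 0.562 for trametinib against DMSO (0.296 to 1.04) and 0.609 for trametinib against AMG510 (0.319 to 1.13). All 3 intervals include 1, so the lower trametinib value was not separable from counting error at this depth. The ratios were not scaled for fragment extension, which was 177 bp in DMSO, 157 bp in AMG510 and 163 bp in trametinib. A longer extension raises the tags at a summit. Fold enrichment ordered AMG510 above DMSO and tags ordered them the other way, since the AMG510 background at the peak was 2.51 tags and the DMSO background 3.54. For comparison, genes with a promoter peak in all 3 lists had medians of 24 (DMSO), 16 (AMG510) and 17 tags (trametinib) at their highest promoter peak.

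The LSS summits lay 545 bp upstream of the TSS in DMSO, 480 bp in AMG510 and 477 bp in trametinib. They were closer to MCM3AP-AS1, a long non-coding RNA gene on the opposite strand, whose nearest start was 46 bp (DMSO), 7 bp (AMG510) and 4 bp (trametinib) away. The plus strand around the DMSO summit is shown because all 3 summits fall within it. It has a GC content of 68.2% and holds no match to either E-box, to TCACNCCAC or to CCAAT, so nothing in it is in capitals.
LSS DMSO summit, chr21:46229219-46229419: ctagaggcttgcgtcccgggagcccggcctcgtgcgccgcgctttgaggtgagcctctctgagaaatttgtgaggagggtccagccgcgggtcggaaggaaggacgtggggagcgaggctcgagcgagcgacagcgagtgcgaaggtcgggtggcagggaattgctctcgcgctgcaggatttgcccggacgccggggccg

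The canonical E-box nearest to the LSS start lies outside all 3 peaks, 43 bp downstream of the TSS. It is printed from the plus strand, with CACGTG in capitals, to set beside the summit sequence.
LSS start E-box, chr21:46228717-46228746: ggcgaggggactCACGTGccctccgtcatt

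CYP51A1 (ENSG00000001630.18, chr7:92084987-92134803, minus strand) encodes the cytochrome P450 that demethylates lanosterol, the first step after ring closure. DMSO had 2 promoter peaks there. One, at chr7:92134011-92134326, had its summit 298 bp downstream of the TSS in the coding part of exon 1, with 15 tags (8.4 to 24.7) and a fold enrichment of 3.82. The other, at chr7:92134615-92134886, had its summit 298 bp before the canonical TSS, only 28 bp from another protein-coding start, with 18 tags (10.7 to 28.4) and a fold enrichment of 4.62. The 2 DMSO peaks thus flanked the canonical start.

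AMG510 had a single CYP51A1 peak, at chr7:92134340-92134785. Its summit lay between the DMSO summits, 45 bp downstream of the TSS in the 5′ UTR. It held 16 tags (9.15 to 26.0), and 94.3% of the AMG510 peaks had a lower fold enrichment than its 6.13, against 50.5% and 16.2% for the DMSO peaks in their list. The lists differ in strength: 2279 of 10378 AMG510 peaks and 3355 of 9552 DMSO peaks had a fold enrichment above 5. A fold enrichment of 5 therefore ranks higher in the AMG510 list. The AMG510 peak shared 171 bp with the upstream DMSO peak, from which its summit was 343 bp away, and stopped 14 bp short of the downstream one. The AMG510-to-DMSO tag ratio at the overlapping pair was 0.876 (0.418 to 1.82). These summits lie farther apart than the fragment extension (177 bp in DMSO, 157 bp in AMG510). The ratio therefore does not compare the same position. The background was 1.77 tags at the AMG510 peak and 3.12 and 3.19 tags at the DMSO peaks.

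Trametinib had no peak at CYP51A1. Its nearest summit, of 10 tags, was 29514 bp from a CYP51A1 start. With the backgrounds of the DMSO peaks scaled to the trametinib library, 11 tags would have been needed for a call, and 9 with the background of the AMG510 peak. The numbers of tags below a call are not in a peak list. The divergent long non-coding RNA gene CYP51A1-AS1 starts 127 bp upstream of the TSS, and its nearest start was 59 bp from the upstream DMSO summit, 172 bp from the AMG510 summit and 425 bp from the downstream DMSO summit. A CACGCG match lies 28 bp before the TSS, which is 73 bp from the AMG510 summit. A CCAAT match in the same peak lies closer, 20 bp from that summit. The CACGCG match is shown, from the plus strand with the match in capitals, because it is an E-box variant within 100 bp of a summit.
CYP51A1 variant E-box, chr7:92134491-92134520: cccctcgggtccCACGCGcgccaccccgtg

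**Figure D3:**
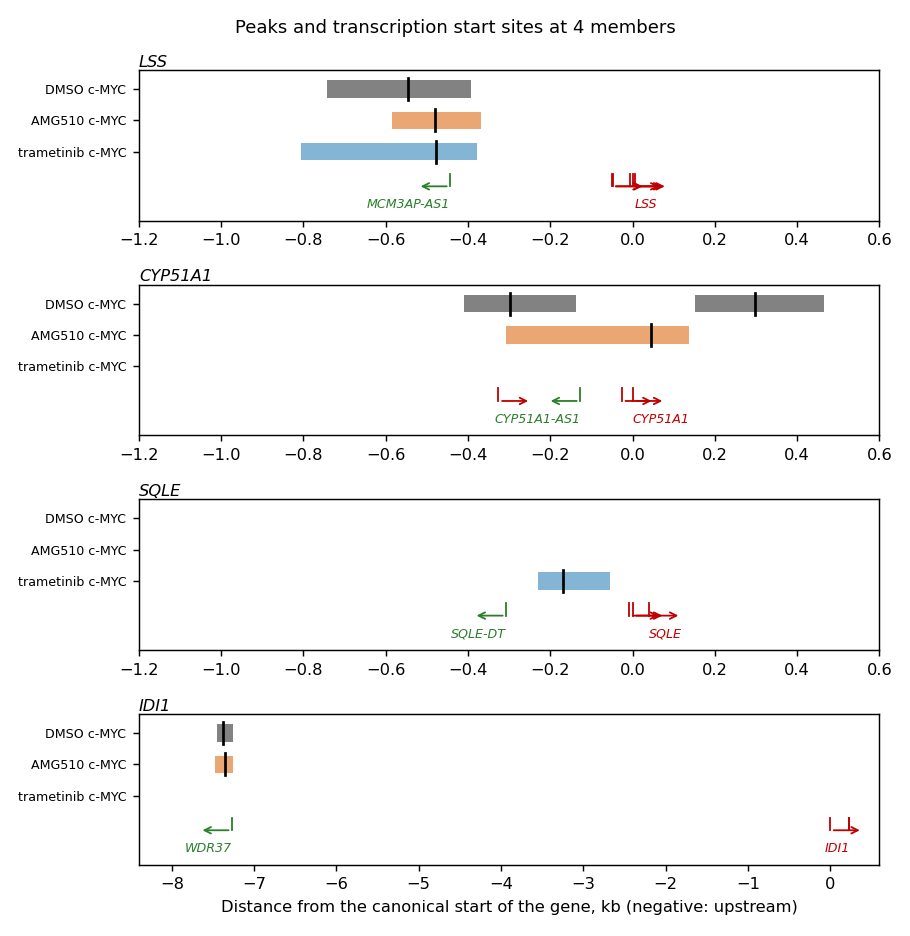
Bars show peaks in each c-MYC list at LSS, CYP51A1, SQLE and IDI1, with black ticks at their summits, against the distance in kb from the canonical start of the gene (negative values are upstream). Red arrows are protein-coding starts of the named gene and green arrows the canonical starts of neighbouring genes. The LSS summits lie near a start of MCM3AP-AS1, and the DMSO and AMG510 peaks upstream of IDI1 lie near a start of WDR37. The AMG510 peak at CYP51A1 lies over its start and overlaps the upstream DMSO peak.

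DHCR7 (ENSG00000172893.18, chr11:71428193-71452868, minus strand), which reduces 7-dehydrocholesterol to cholesterol in the last step of the pathway, had no peak by either rule. The nearest c-MYC summit of any list was farther from DHCR7 than from each of the other 8 genes, with nearest summits 334816 bp away in DMSO, 1040948 bp in AMG510 and 334831 bp in trametinib. Chromosome 11 also had the lowest share of genes with a DMSO promoter peak among the chromosomes of the 9 genes, 14.9%, against 22.9% to 32.9% on the others. A canonical E-box nevertheless lies 285 bp upstream of the DHCR7 TSS, and is shown on the plus strand with CACGTG in capitals as a canonical E-box at a start with no peak.
DHCR7 upstream E-box, chr11:71448664-71448693: tggcggagtggcCACGTGggccgcgcggag

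**Figure D4:**
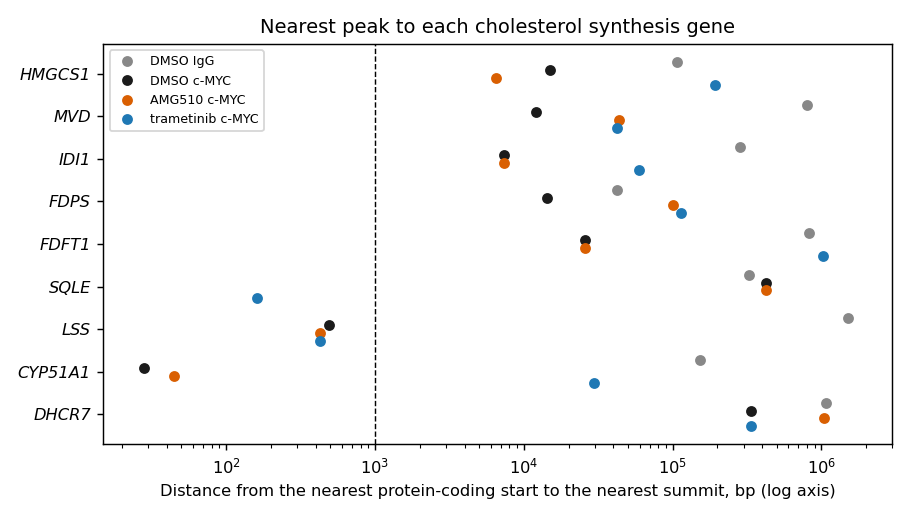
Points give the distance in bp (log axis) from the nearest protein-coding start of each gene to the nearest summit in each of the 4 lists, with a dashed line at the 1 kb limit of a promoter peak. Only LSS, CYP51A1 and SQLE have points left of the line. IgG points lie at 42104 bp or farther from all 9 genes.

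Of the 3 DMSO promoter peaks at these genes, 2 were overlapped by an AMG510 peak (LSS and the upstream CYP51A1 peak) and 1 by a trametinib peak (LSS). Among all 4617 DMSO promoter peaks, 33.1% were overlapped by an AMG510 peak and 27.7% by a trametinib peak. Both comparisons use the same DMSO library. No IgG peak overlapped any of the 3.

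**Figure D5:**
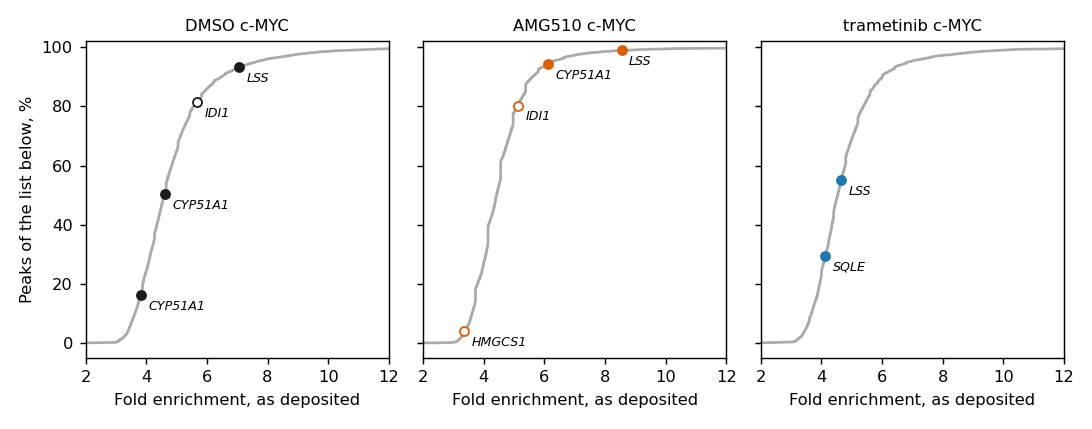
Grey lines give, for each c-MYC list, the percentage of peaks (vertical axis) with a fold enrichment below the value on the horizontal axis. Points mark the peaks at the 9 genes, filled for promoter peaks and open for peaks elsewhere. The LSS point stands at 93.3% for DMSO, 98.9% for AMG510 and 55% for trametinib, and the HMGCS1 point lies at 4.05%.

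Promoter peaks at LSS and SQLE were nearer to the start of a non-coding neighbour than to the enzyme gene. This held for 1 of 3 in DMSO (LSS), 1 of 2 in AMG510 (LSS) and 2 of 2 in trametinib (LSS and SQLE). The LSS site is counted again in each list, so these are not separate sites. Over all promoter peaks the share nearer to a start that is not protein-coding was 7.86% in DMSO, 7.66% in AMG510 and 8.57% in trametinib. Counting only peaks with no start of another gene nearer left CYP51A1 alone in DMSO and AMG510 and no gene in trametinib.

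Divergent neighbours were common in the set itself. A start on the opposite strand within 500 bp upstream of the canonical TSS was annotated for 7 of 9 genes (77.8%), all but HMGCS1 and FDPS, against 21.7% of all protein-coding genes. The neighbour is SNAI3-AS1 at MVD (207 bp), WDR37 at IDI1 (419 bp), SQLE-DT at SQLE (307 bp), MCM3AP-AS1 at LSS (422 bp) and CYP51A1-AS1 at CYP51A1 (127 bp), with an unnamed long non-coding RNA gene at FDFT1 (173 bp) and at DHCR7 (169 bp). This WDR37 start is not the one near the IDI1 peaks. Their summits lay 7376 bp (DMSO) and 7353 bp (AMG510) upstream of the IDI1 TSS. Among all genes, 35.8% of those with such a neighbour had a DMSO promoter peak and 21% of those without. Whether c-MYC at LSS or SQLE belongs to the enzyme gene or to its neighbour was not tested.

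No peak at the 9 genes had CACGTG within 100 bp of its summit, and none had it within 250 bp. Over all promoter peaks 16.9% in DMSO, 14.4% in AMG510 and 17.3% in trametinib had CACGTG within 100 bp. CACGCG lay within 100 bp of the AMG510 summit at CYP51A1 and the trametinib summit at SQLE, where the shares over all promoter peaks were 21.1% in AMG510 and 22.2% in trametinib. CCAAT lay within 100 bp of the same summits, where the shares were 8.66% in AMG510 and 9.7% in trametinib. Matches on either strand were counted, and a match to one of these E-boxes cannot share bases with a match to the other.

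In the 2 kb around the canonical TSS, the 9 genes held E-boxes about as often as other genes. CACGTG was present at 3 of 9 (33.3%, DHCR7, FDFT1 and LSS), against 29.2% of 20033 genes with a canonical start. CACGCG was present at 4 of 9 (44.4%, CYP51A1, IDI1, MVD and SQLE), against 41.3%, and the 2 IDI1 matches overlap each other. TCACNCCAC was present at 1 of 9 (11.1%), against 10%. CCAAT was present at all 9, with a median of 4 matches per gene, against 87.1% of all genes and a median of 2. Of the 3 genes with CACGTG, LSS had a promoter peak and DHCR7 and FDFT1 had none.

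The RefSeq promoter table, which runs from 250 bp before to 50 bp after each start, held 11 windows for 7 of the 9 genes. FDFT1 and SQLE had none. IDI1, HMGCS1 and DHCR7 had more than 1 window each, some of them overlapping, so the windows are not independent. Their median GC content was 69%, against 62.3% over all 22198 windows, and their median CpG ratio (observed over expected) was 0.866 against 0.737. CCAAT was present in 7 of the 11 windows (63.6%), against 34.7%.

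The pathway list held 12 other enzymes between acetyl-CoA and cholesterol. Those with a promoter peak in any list were PMVK, LBR and EBP. Promoter peaks were found at 2 of 12 (16.7%) in DMSO, 2 of 12 in AMG510 and none in trametinib or IgG, beside the shares of all genes given above.

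PMVK, the kinase that makes mevalonate diphosphate, had a promoter peak in DMSO and another in AMG510. The DMSO peak at chr1:154936457-154936879 held 19 tags, with its summit 185 bp downstream of the TSS in intron 1 and a CACGTG within 100 bp. The AMG510 peak at chr1:154937191-154937374 held 15 tags, 605 bp upstream of the TSS but only 46 bp from the start of a long non-coding RNA gene. The 2 PMVK peaks did not overlap. LBR, the lamin B receptor with sterol reductase activity, had a DMSO promoter peak of 12 tags and a second DMSO peak of 15 tags in intron 7. EBP, the sterol isomerase, had an AMG510 promoter peak of 14 tags and a fold enrichment of 6.10, and a start of another protein-coding gene, ENSG00000286268, lay 156 bp from its summit. None of these 3 genes had a trametinib peak by either rule.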

How the data were processed

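c-MYC ChIP-seq was measured in 3 MIA PaCa-2 libraries and IgG in 1. According to the study's methods and the submitters' processing notes, the authors used Trimmomatic 0.39 for trimming and BWA 0.7.17 for alignment to GRCh38, kept mapping quality of at least 20 (SAMtools 1.9), removed duplicates (Picard), made intervals with bedtools 2.27.1, called peaks per library with MACS2 2.2.7.1 at default settings and removed excluded regions. Unstranded peak lists followed, 1 per library.

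The deposited columns were a score (the whole part of 10 times the −log10 q, in all but 1 peak of the DMSO c-MYC and 1 of the trametinib list), a fold enrichment (a ratio over the background of that library), and, for the summit, the p-value and the q-value, each as −log10. Values rank peaks within a list and depend on that library. From them the whole number of tags at each summit was recovered (100% of peaks), and the tags in calling from the genome-wide background, fragment extension and a genome size of 2700000000 bp. Reads and coverage were not used here, so no value exists where no peak was called.

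Groups came from sample titles. Starts came from GENCODE version 44 and promoter windows from RefSeq (GRCh38). All 95 contigs in the lists were matched to the reference by name, and 4 peaks run past the end of their contig. Calculations used Python 3.11.15, pandas 2.3.3 and SciPy 1.17.1, and recovery was tested on simulated data. With 1 library per group there was no test. Counts were read beside the same share over all genes, and overlap meant at least 1 bp. Tag ratios have exact conditional binomial (Clopper-Pearson) intervals and compare libraries, not conditions. They were scaled to the tags in calling and not for fragment extension. Both strands were searched for the E-box CACGTG, its variant CACGCG, the sterol element TCACNCCAC and the CCAAT box. All 9 genes were named with every peak, the 12 others where they had a promoter peak, and neighbours where a start lay within 1 kb of a peak. Neighbours at starts with no peak and the closest peaks outside the rules were named after their values were seen. The genes and lists were chosen with earlier results of these data known. Alternatives varied start sets, windows, filters, overlap and motif reach. RefSeq starts and the limits on neighbouring starts were added after seeing the data. What AMG510 acts on, and some genes of the list of 12 by name, are not reported here.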

Additional observations from a re-analysis of the deposited data

How the results depend on the processing

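Across 23 results and 105 alternatives, 81 values stayed within 1.5 times the count (or within the counting interval) and 24 did not. For the counts of genes, the share of all genes was computed under an alternative only for RefSeq starts. Of the 9 genes, those with a promoter peak went from 2 to 1 in DMSO with a fold enrichment above 5, a score above 60 or no nearer start of another gene. The AMG510 count went from 2 to 1 only under that last limit. The trametinib count went from 2 to 0 under all 3 and to 1 with RefSeq starts, a table in which SQLE was not matched. With RefSeq starts IDI1 joined in DMSO and AMG510, giving 3 in each, of the 7 genes in that table, which also lacks FDFT1. The shares of all genes with RefSeq starts were 23.9% in DMSO c-MYC, 15.1% in AMG510 and 11.7% in trametinib. Of the 12 other enzymes, the DMSO count went from 2 to 0 under either peak filter, and the AMG510 count to 1 with fold enrichment above 5, to 0 with score above 60 and to 1 with summits within 500 bp. Genes with a peak elsewhere went from 1 in DMSO to 0 at 5 kb upstream, 2 at 20 kb and 0 without neighbouring starts within 1 kb, and from 2 in AMG510 to 1 at 5 kb, 1 with fold enrichment above 5, 0 with score above 60 and 1 without neighbouring starts. AMG510 overlapped 1 of the 3 DMSO promoter peaks in place of 2 with summits within 250 bp. With DMSO fold enrichment above 5, only the LSS peak was left among the DMSO promoter peaks, and AMG510 overlapped it. The shares over all DMSO promoter peaks were not computed under these 2 settings. Counting CACGTG or CACGCG gave 1 of 2 promoter peaks in AMG510 and 1 of 2 in trametinib in place of 0. The share of all promoter peaks with either motif was not computed, and the shares for each motif alone are given above. In place of scaled tags, deposited fold enrichment put the log2 AMG510-to-DMSO ratio at 0.28 for LSS and 0.41 for CYP51A1, against -0.12 and -0.19, all within the counting intervals. The cause of these changes was not tested beyond the filters' own construction. No paired analysis was possible because no group has a second library. Depth limits the lists: a gene without a peak may hold tags below what a call needs, which is 7 or 8 at the genome-wide background and more where the local background is higher.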
